A study of Mus musculus with 12 samples.

Results

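The genes described here encode heat shock proteins and other chaperones. They are the rows of the deposited table with the biotype protein_coding and a symbol that begins with Hspa, Hspb, Hspd, Hspe, Hsph, Hsp90, Dnaja, Dnajb, Dnajc, or with Cct or Bag and a digit. This rule took 88 of the 54532 genes in the table, and 79 of them had enough reads to be tested among 15122 genes. It used names and not measured values. By family they were 11 genes of HSP70, 3 of HSP110, 3 of HSP90, 2 of the HSP60/HSP10 chaperonin, 7 small heat shock proteins, 3 other genes with Hspb names, 4 of DNAJA, 13 of DNAJB, 28 of DNAJC, 8 named for the CCT chaperonin and 6 of BAG. The 9 untested members were Hspb9 with 3 to 12 reads per library, Dnajb13 with 0 to 8, Dnajb7 with 0 to 3, and Dnajb3, Hspb3, Dnajb8, Dnajc5b, Cct8l1 and Dnajc5g with at most 1.

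The RNA came from C2C12 cells, an immortalized mouse myoblast line that can fuse into myotubes. Cells were harvested 48 h after transfection with siRNA at 30 nM, with 3 biological replicates in each of 4 groups. The siCONTROL group received a control siRNA, the siKEAP1 group was depleted of KEAP1, the siCCNF group of CCNF, and the siKEAP1/siCCNF group, called the double depletion here, of KEAP1 and CCNF together. The 4 groups share the cell line, the growth medium with serum, the transfection and the time point, and no group was left untransfected. KEAP1 is the substrate adaptor of a CUL3 ubiquitin ligase that keeps the antioxidant transcription factor NRF2 low, and CCNF (cyclin F) is a substrate adaptor of an SCF ubiquitin ligase. The study asked whether loss of CCNF alters the response to KEAP1 depletion. All libraries are from a single cell line, and the siRNAs lower their targets without removing them. The paper lists a single siRNA against Keap1, and which Ccnf siRNA was used for these libraries is not given. Effects of an siRNA beyond its target cannot be told apart here from loss of the target.

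Chaperones bind unfolded or partly folded proteins and help them to fold, to stay soluble or to be handed on for degradation. HSP70 proteins do so in cycles of ATP hydrolysis that J-domain proteins (DNAJA, DNAJB and DNAJC) start and that HSP110 and BAG proteins end by releasing ADP. HSP90 acts later on folded clients such as kinases and receptors, the CCT ring folds actin and tubulin, and small heat shock proteins hold unfolded proteins without ATP. Heat and misfolded proteins raise many of the cytosolic members through the transcription factor HSF1, while the unfolded protein response raises those of the endoplasmic reticulum (ER). In muscle, HSPB8 and BAG3 work together in the turnover of damaged structural proteins, and several small heat shock proteins are abundant.

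Library totals ranged from 18464209 to 37743198 reads assigned to genes. Keap1 read 90, 89 and 84.3 CPM (reads scaled to library size) in siCONTROL, 12.3, 12.8 and 12.7 in siKEAP1, 86.5, 88.6 and 80.3 in siCCNF and 22.2, 27 and 23.1 in the double depletion, so that depletion was deeper with siKEAP1 alone. Ccnf read 85.5, 80.1 and 77.7 CPM, 56.8, 64.9 and 56.4 CPM, 19.7, 20.4 and 21.3 CPM and 23.7, 24.1 and 25.6 CPM in the same order of groups, and every library matched its label. The distance of genes from their group mean varied with gene length. Across 15122 genes the correlations were strongest at -0.31 for siCONTROL replicate 1 and -0.28 for siKEAP1/siCCNF replicate 3. The other siCONTROL libraries had 0.19 and 0.21 and the other siKEAP1/siCCNF libraries 0.20 and 0.15. Values within a group are linked, because each is a distance from the mean of that group. The siKEAP1 and siCCNF libraries lay between -0.094 and 0.094. Counts of called genes are therefore also given without siCONTROL replicate 1 and siKEAP1/siCCNF replicate 3. The 7 myoblast markers were present, and their summed level ranged over 1622 to 1835 CPM in siCONTROL, 1077 to 1099 in siKEAP1, 807 to 839 in siCCNF and 801 to 876 in the double depletion. The muscle differentiation factor Myog read 74.6, 32 and 29.3 CPM in siCONTROL and at most 10.2 CPM in the other libraries. The leukocyte genes Ptprc and Adgre1 and the adipocyte genes Adipoq and Plin1 stayed at or under 0.12 CPM, and no read was counted for Cd3e. Of the same lists, the macrophage gene Cd68 read 0.672, 1.36 and 0.963 CPM in siCONTROL and 5.34, 9.96 and 6.71 CPM in siKEAP1 (log2 fold change 2.90), and Fabp4 read 0.0448, 0.108 and 0.0963 CPM and 2.46, 3.32 and 2.15 CPM (4.94), both called. Summed neural markers ranged over 25.9 to 31.3 CPM in siCONTROL, 45.5 to 49.9 in siKEAP1, 5.82 to 7.97 in siCCNF and 9.15 to 10.5 in the double depletion, with Tubb3 called in each depletion (0.81, -2.20 and -1.68). Epithelial and endothelial markers summed to at most 2.09 CPM and 1.38 CPM, with Cdh1 called higher in siCCNF and the double depletion (1.95 and 2.52) and Cdh5 lower in the double depletion (-2.82). Their part in the chaperone values was not tested.

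In cells depleted of CCNF, alone or with KEAP1, chaperone genes were called lower more often than higher, and cytosolic HSP90, HSP70 partners and small heat shock proteins were among those that fell. In cells depleted of KEAP1 alone, several of these, among them Hsp90ab1, Hsph1, Hspb1 and Hspb8, rose. Over all chaperone genes, the balance of higher and lower calls there depended on how the libraries were adjusted. Their median log2 fold change lay above that of all genes both with the gene length trend and without it. A gene was called at an adjusted p under 0.05 over all genes tested. In siKEAP1, 21 of the 79 tested members (26.6%) were higher than in siCONTROL and 13 (16.5%) were lower, against 20.4% and 20.2% of all genes tested. In siCCNF, 12 members (15.2%) were higher and 28 (35.4%) lower, against 22.5% and 25.5% of all genes. In the double depletion, 16 (20.3%) were higher and 27 (34.2%) lower, against 20.6% and 23.6%. Without siCONTROL replicate 1 and siKEAP1/siCCNF replicate 3 these counts were 26 and 15, 22 and 29, and 19 and 30. The higher count in siCCNF thus depended on these libraries. Shares of all genes are not given for this setting, here or below, nor for the removal of the gene length trend. In these settings a change of calls over the whole table cannot be told apart from one of the members. The median log2 fold change of the members was 0.083 in siKEAP1, -0.088 in siCCNF and -0.035 in the double depletion, beside medians of -0.012, 0.013 and 0.014 over all genes. Once the trend with gene length was removed, the siKEAP1 counts turned to 15 higher and 21 lower, with a members' median of 0.0039 where that of all genes was -0.089. The siCCNF counts were then 15 and 26 and those of the double depletion 18 and 29. The 3 comparisons share the siCONTROL libraries.

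Most of these differences were small. A change over 2-fold at the same adjusted p was found for 2 members in siKEAP1 (Dnajc6 higher, Cct3 lower), for 6 in siCCNF (Hsp90ab1, Hspb1, Hspa12a, Dnajc12, Dnajc22 and Dnajc6, each lower) and for 3 in the double depletion (Hspa12a, Hspa1a and Dnajc12, each lower). Over all genes the same threshold was passed by 11.5%, 11.4% and 10.3%. Members took 1.44% of all reads in siCONTROL, 1.61% in siKEAP1, 1.22% in siCCNF and 1.32% in the double depletion. Their summed level was 14390 ± 549.9 CPM (SD, n = 3) in siCONTROL, 15920 ± 143 in siKEAP1, 12400 ± 165 in siCCNF and 13130 ± 443 in the double depletion. The largest part of these changes lay in the HSP90 family, at 4365, 5163, 2597 and 2927 CPM in the same order of groups. The HSP70 sums were 2866, 2942, 2873 and 2893 CPM and the CCT sums 1978, 1981, 2023 and 2170 CPM, while DNAJC went from 1604 to 1550, 1437 and 1408 CPM. In bulk RNA a lower level in every cell and a smaller share of cells with the transcript cannot be told apart.

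**Figure D1:**
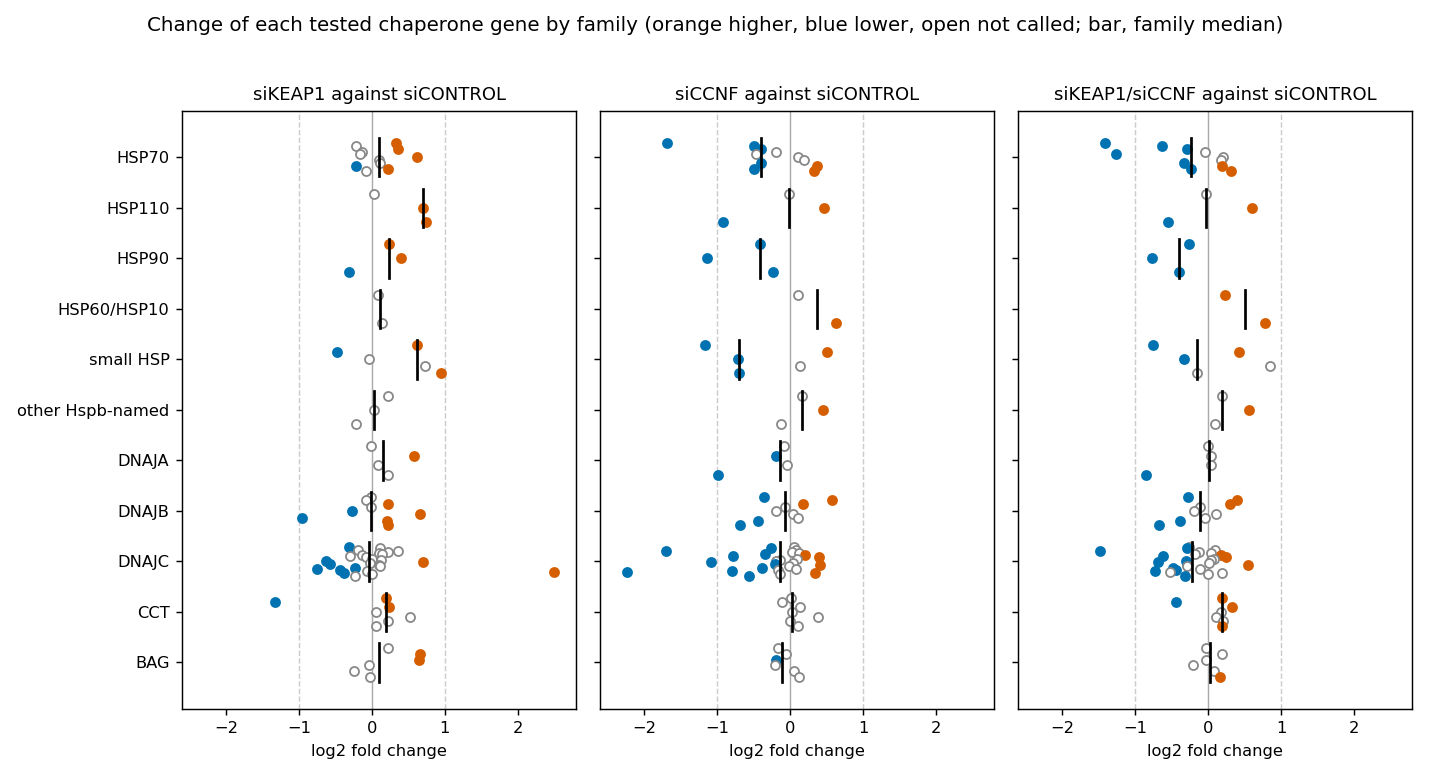
Log2 fold change against siCONTROL (horizontal axis) of each of the 79 tested chaperone genes, arranged by family, in siKEAP1 (left), siCCNF (middle) and the double depletion (right). Orange points were called higher and blue points lower at an adjusted p under 0.05, open points were not called, black bars are family medians and dashed lines mark 2-fold, and the 3 HSP90 genes are lower in the middle and right panels while Cct3 stands apart from its family at -1.33 in the left panel.

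Per gene length, HSP90 beta was the most abundant chaperone transcript. In siCONTROL the authors' FPKM (fragments scaled by transcript length and library size) was 859 ± 52.1 for Hsp90ab1 (mean ± SD, n = 3), 246 ± 9.53 for Hspa8, 232 ± 10.2 for Hspa5, 231 ± 8.26 for Hsp90b1, 209.6 ± 9.72 for Hsp90aa1 and 158 ± 10.9 for Hspd1. Hsp90ab1 stood above the others by far more than their spread. The levels of Hspa8, Hspa5 and Hsp90b1 followed each other within the sum of their SDs.

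The cytosolic HSP90 genes rose with KEAP1 depletion and fell with CCNF depletion. Hsp90ab1, the constitutive cytosolic HSP90 (chr17:45567775-45573271 in GRCm38, minus strand), read 2758, 2573 and 2454 CPM in siCONTROL, 3466, 3440 and 3382 in siKEAP1, 1157, 1196 and 1173 in siCCNF and 1473, 1505 and 1599 in the double depletion. The 4 groups did not overlap. Its log2 fold change against siCONTROL was 0.40 ± 0.06 (SE) in siKEAP1 (edgeR adjusted p = 1.37e-04), -1.14 ± 0.061 in siCCNF (edgeR adjusted p = 1.84e-08) and -0.77 ± 0.061 in the double depletion (edgeR adjusted p = 5.36e-07). It was thus at 45.3% of its siCONTROL level after siCCNF. Hsp90aa1, the stress-inducible cytosolic form, read 874, 802 and 816 CPM in siCONTROL, 928, 1019 and 987 in siKEAP1, 589, 650.4 and 634 in siCCNF and 667, 721 and 684 in the double depletion. It moved in the same directions by less, with log2 fold changes of 0.24, -0.41 and -0.27, each called. Its rise in siKEAP1 missed the threshold without siKEAP1 replicate 2 (0.20).

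The cytosolic HSP70 genes and their exchange factors were less uniform. Hspa8, the constitutive HSC70, read 1112, 1044 and 1041 CPM in siCONTROL, 1245, 1232 and 1243 in siKEAP1, 751, 756 and 759 in siCCNF and 824, 869 and 1029 in the double depletion. It fell in siCCNF (log2 fold change -0.50 ± 0.075, edgeR adjusted p = 1.24e-04) and in the double depletion (-0.23). Its rise in siKEAP1 (0.22) and the fall in the double depletion were small, and each was lost when some single libraries were left out. The stress-inducible Hspa1b rose in siKEAP1, from 31.7, 32.7 and 33.8 CPM to 52.4, 48.4 and 50 CPM (log2 fold change 0.62 ± 0.083, edgeR adjusted p = 5.33e-05). It was not called in siCCNF (0.10) or the double depletion (0.21). Hspa1a, its near-identical neighbour on chromosome 17, was much lower at 2.51, 2.23 and 3.03 CPM in siCONTROL and 1.23, 1.05 and 0.967 CPM in the double depletion, where it fell (-1.26 ± 0.25, edgeR adjusted p = 0.00104). How reads shared by this pair were counted is not given in the sources used here, so the split between them is uncertain. Hspa2, a testis-enriched HSP70, fell in siCCNF (-0.40) and the double depletion (-0.33), while Hspa14 and Hspa1l did not pass in any comparison with siCONTROL.

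Hsph1, an HSP110 exchange factor for HSP70 (chr5:149614287-149636376, minus strand), showed the same opposition as Hsp90ab1. It read 112, 112 and 111 CPM in siCONTROL, 174, 197 and 187 in siKEAP1, 51.8, 62 and 62.7 in siCCNF and 73.4, 76 and 78.8 in the double depletion, with no overlap between groups. Its log2 fold changes were 0.74 ± 0.077 in siKEAP1 (edgeR adjusted p = 6.16e-06), -0.92 ± 0.078 in siCCNF (edgeR adjusted p = 7.80e-07) and -0.55 ± 0.077 in the double depletion (edgeR adjusted p = 7.40e-05). Hspa4l, a relative of the same family, was called higher in all 3 depletions (0.70, 0.47 and 0.60). Its siCCNF value was 0.32 and missed the threshold without siCONTROL replicate 1, in which the gene read 84.1 CPM against 114 and 122 in the other 2. The third member, Hspa4, stayed between 333 and 360 CPM in all 12 libraries.

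The distant HSP70 relative Hspa12a had the largest fall of the HSP70 family with CCNF depletion. It read 53.4, 78 and 75.9 CPM in siCONTROL, 83.1, 84.6 and 92 in siKEAP1, 20.3, 21.4 and 22.4 in siCCNF and 25, 27.2 and 25.3 in the double depletion. After siCCNF it was at 31% of the siCONTROL level (log2 fold change -1.69 ± 0.12, edgeR adjusted p = 1.80e-07) and after the double depletion at 37.4% (-1.42 ± 0.12, edgeR adjusted p = 9.82e-07). Its siKEAP1 value of 0.33 lost its call in 10 alternatives, among them leaving out siCONTROL replicate 1 (0.16). Hspa12b, its paralog, also fell in siCCNF (-0.49) and in the double depletion (-0.63).

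Of the small heat shock proteins, Hspb1 and Hspb8 rose with KEAP1 depletion and fell with CCNF depletion. Hspb8, which acts with BAG3, read 75.3, 75.2 and 70.5 CPM in siCONTROL, 139, 144 and 141 in siKEAP1, 45.3, 47.5 and 43.4 in siCCNF and 63.2, 63.5 and 72.1 in the double depletion. Its log2 fold change was 0.94 ± 0.068 in siKEAP1 (edgeR adjusted p = 2.03e-07) and -0.70 ± 0.068 in siCCNF (edgeR adjusted p = 2.77e-06). In the double depletion it was at 90% of siCONTROL and was not called. Hspb1, known as HSP25 in the mouse, read 187, 137 and 135 CPM in siCONTROL, 239, 231 and 232 in siKEAP1, 69.6, 68.9 and 66.5 in siCCNF and 82.9, 90.4 and 98.3 in the double depletion. It rose 1.53-fold in siKEAP1 (edgeR adjusted p = 4.82e-04), and it was at 44.7% of siCONTROL in siCCNF (edgeR adjusted p = 2.05e-06) and at 59.2% in the double depletion (edgeR adjusted p = 9.10e-05). Bag3, the partner of HSPB8, rose in siKEAP1 from 102, 107 and 112 to 169, 166 and 167 CPM (0.65 ± 0.064, edgeR adjusted p = 3.87e-06). It read 89.2, 93 and 99.4 CPM in siCCNF, a small fall (-0.19) that 7 alternatives did not call, and 104, 99.1 and 110.1 CPM in the double depletion.

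The other muscle small heat shock proteins moved apart from this pair. Hspb6 (HSP20) read 36, 38.5 and 38 CPM in siCONTROL and 36.9, 34.9 and 37.5 in siKEAP1, and it fell in siCCNF to 24.4, 22.7 and 21.2 CPM (-0.72 ± 0.08, edgeR adjusted p = 9.28e-06) and in the double depletion to 27.8, 28.9 and 32.6 CPM (-0.33). Hspb2, a low-abundance muscle form, went the other way, from 6.77, 5.7 and 6.26 CPM down to 4.6, 5.06 and 3.73 in siKEAP1 (-0.48 ± 0.14, edgeR adjusted p = 0.012) and up to 8.61, 8.32 and 9.74 in siCCNF (0.51 ± 0.13, edgeR adjusted p = 0.00524). The siKEAP1 fall missed the threshold without siKEAP1 replicate 3 (-0.37). Hspb7 stayed under 0.6 CPM and was not called. The lens and muscle chaperone Cryab, of the same protein family but outside the rule, rose in siCCNF (0.28) and in the double depletion (0.33), in contrast to Hspb1, Hspb6 and Hspb8. Muscle genes moved in these libraries as well. Of 7 myoblast markers, 6 were lower in siKEAP1 and 7 in each of the other depletions, and of 9 markers of differentiating muscle, 7 of them tested, 6, 5 and 6 were lower, with summed levels of 68.1 to 154 CPM in siCONTROL, 55.7 to 59.2 in siKEAP1, 24.9 to 30.7 in siCCNF and 17.7 to 18.3 in the double depletion. Their part in the small heat shock protein values was not tested.

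**Figure D2:**
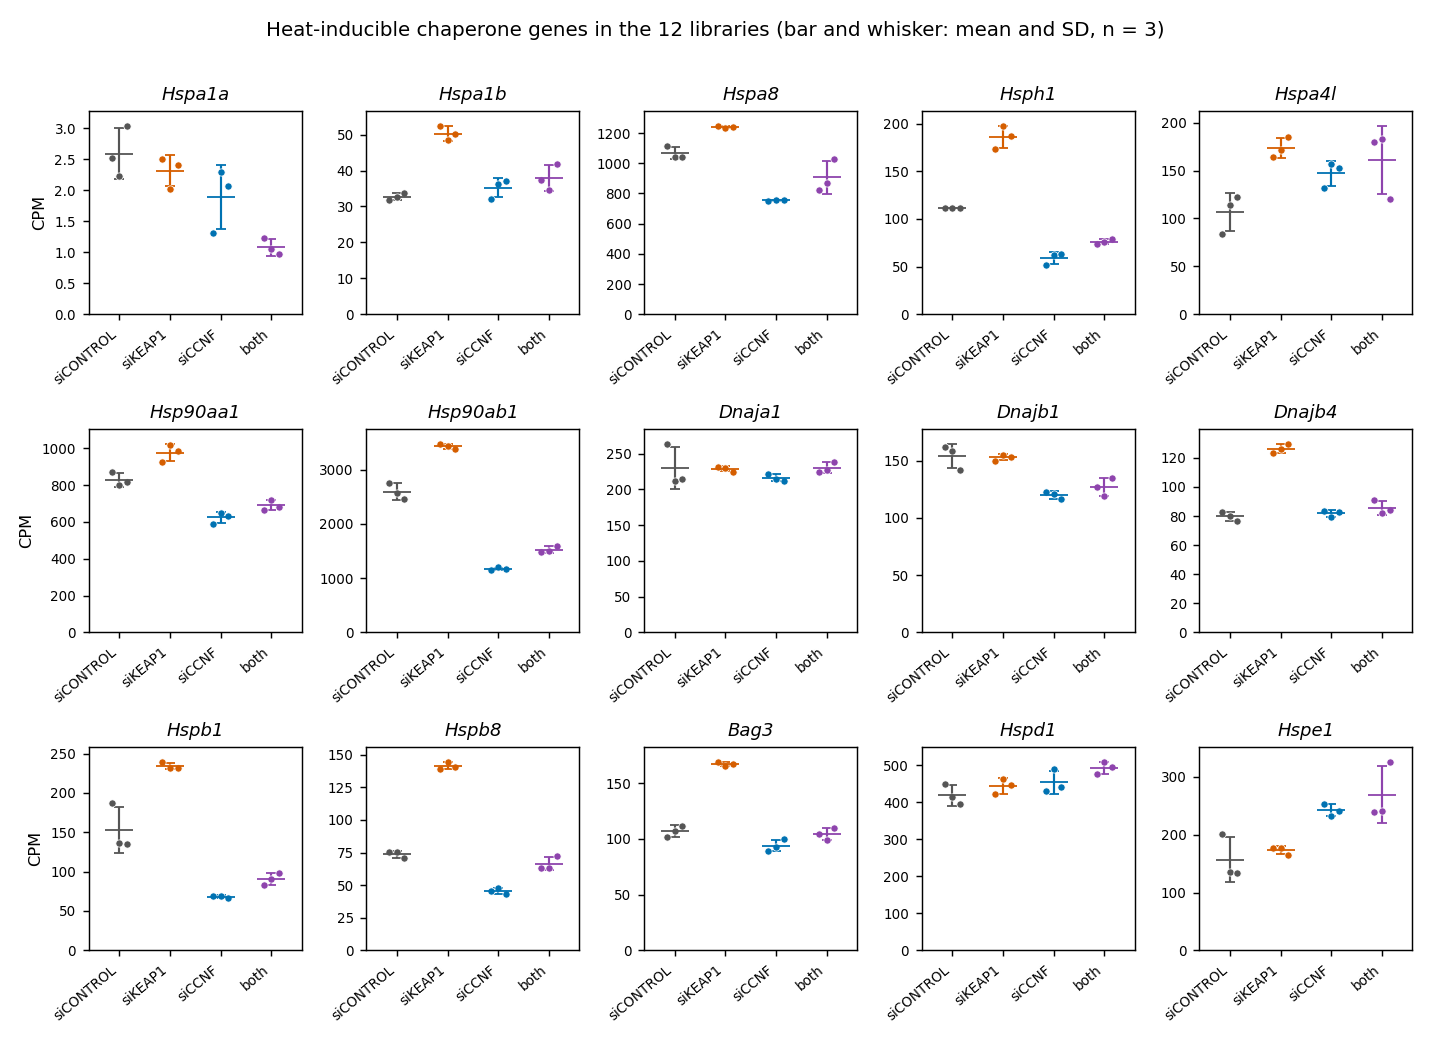
CPM (vertical axes, each from 0) of 15 chaperone genes known to be heat-inducible or targets of HSF1, in the 3 libraries of siCONTROL (grey), siKEAP1 (orange), siCCNF (blue) and the double depletion (purple, labelled both). Points are libraries and bars with whiskers are mean and SD, and in Hsp90ab1, Hsph1 and Hspb1 the 4 groups stand in the order siKEAP1, siCONTROL, double depletion, siCCNF from high to low.

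By role, 15 members are known as heat-inducible or as HSF1 targets. The list was drawn up with earlier results of these data known. In siKEAP1 10 of the 15 (66.7%) were called higher and 5 were not called, with a median log2 fold change of 0.40. Over all genes, 20.4% were higher and 20.2% lower there. In siCCNF 2 (13.3%) were higher and 8 (53.3%) lower (median -0.36), against 22.5% and 25.5% of all genes. In the double depletion 3 (20%) were higher and 7 (46.7%) lower (median -0.15), against 20.6% and 23.6%. With the gene length trend removed the calls were 9 higher in siKEAP1, and 3 higher and 7 lower in siCCNF. The 2 that rose in siCCNF were Hspa4l and Hspe1, and Hspd1 joined them in the double depletion. The summed level of the 15 genes was 6118 ± 337 CPM in siCONTROL, 7727 ± 65.8 in siKEAP1, 4121 ± 86.6 in siCCNF and 4865 ± 228 in the double depletion, with ranges of 5858 to 6498, 7683 to 7803, 4032 to 4205 and 4663 to 5112 that did not overlap. Hsp90ab1 alone gave 2595 CPM of the siCONTROL sum. Without siCONTROL replicate 1 and siKEAP1/siCCNF replicate 3, the calls were 11 higher in siKEAP1, 3 higher and 8 lower in siCCNF, and 3 higher and 8 lower in the double depletion. The transcript of Hsf1 itself fell in siKEAP1, from 88.2, 79.9 and 74.9 CPM to 55.8, 53 and 53.1 CPM (-0.59 ± 0.076, edgeR adjusted p = 4.10e-05), and read 87.2, 87.5 and 88.8 CPM in siCCNF and 80.7, 81.9 and 93.5 CPM in the double depletion. Hsf2, the related factor, was called in 1 comparison with siCONTROL, that of siCCNF, where it fell by 0.21 on the log2 scale.

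J-domain proteins of the A and B classes, which deliver clients to HSP70, did not move together. Dnaja2 rose in siKEAP1 from 505, 457 and 440.4 CPM to 710, 711 and 676 CPM (0.58 ± 0.062, edgeR adjusted p = 7.23e-06). Dnajb4, a cytosolic partner of HSP70, rose from 83, 79.9 and 76.5 CPM to 124, 126 and 129.5 CPM (0.66 ± 0.061, edgeR adjusted p = 2.12e-06). In the double depletion they read 471, 471 and 496 CPM and 91.1, 81.8 and 84.4 CPM and were not called. Dnajb1, the canonical inducible HSP40, was not called in siKEAP1 (-0.011) and fell in siCCNF (-0.36 ± 0.066, edgeR adjusted p = 5.96e-04) and in the double depletion (-0.28), while Dnaja1 was not called in any comparison (-0.0069 in siKEAP1 and -0.088 in siCCNF). Dnaja4 read 12.5, 12.2 and 11.9 CPM in siCONTROL, 15, 14.3 and 13.3 in siKEAP1, 6.3, 6.53 and 5.69 in siCCNF and 6.15, 7.42 and 6.72 in the double depletion, at 50.5% of siCONTROL after siCCNF (edgeR adjusted p = 5.13e-06). Dnajb5, another cytosolic member, had the largest fall of the B class in siKEAP1, from 15.9, 11.3 and 11 CPM to 6.6, 6.64 and 6.49 CPM (-0.96 ± 0.14, edgeR adjusted p = 1.27e-04), and it was not called in siCCNF or the double depletion.

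Dnajb6, which holds polyglutamine proteins soluble, read 117, 105 and 108 CPM in siCONTROL, 130.4, 129 and 122 in siKEAP1, 81, 80.5 and 81.5 in siCCNF and 80.4, 86.8 and 85.1 in the double depletion. It fell by 0.44 on the log2 scale in siCCNF (edgeR adjusted p = 5.35e-05) and by 0.39 in the double depletion, and its small rise in siKEAP1 (0.21) was lost in 5 alternatives. Among BAG genes, Bag2 rose in siKEAP1 from 35, 28.2 and 29.2 CPM to 45.5, 50.7 and 49.7 CPM (0.66 ± 0.085, edgeR adjusted p = 4.07e-05), and Bag1, an exchange factor of HSP70, was not called against siCONTROL (0.22, -0.17 and -0.035).

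The promoters of some of these genes hold a strict heat shock element, the binding motif of HSF1. The motif was searched as 3 alternating triplets that are 2 bases apart, GAANNTTCNNGAA or TTCNNGAANNTTC, on both strands, from 250 bases before to 50 after each RefSeq gene start in GRCm38. Promoters were at hand for 72 of the 88 members, without Hsp90aa1, Hsp90ab1 and Hspa8, and for 27025 genes in all. The motif was found for 4 of the 72 members (5.56%), Hspd1, Hspe1, Hsph1 and Dnajb6, and for 0.662% of all genes. In Hsph1 it lay after the start site. The stretches before the start of Hspe1 and of Dnajb6 are shown for their motif, which is in capitals. Hspd1 and Hspe1 are transcribed away from each other from the same stretch, in which 2 matches overlap. The Hspe1 stretch is chr1:55088014-55088121 on the plus strand and that of Dnajb6 is chr5:29735807-29735897 on the plus strand.
Hspe1: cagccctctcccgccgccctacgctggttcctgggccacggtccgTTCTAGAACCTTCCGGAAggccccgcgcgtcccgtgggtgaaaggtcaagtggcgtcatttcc
Dnajb6: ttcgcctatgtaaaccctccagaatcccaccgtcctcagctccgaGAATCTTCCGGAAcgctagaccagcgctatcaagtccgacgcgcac

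Genes with this motif did not share a direction. Hsph1 and Dnajb6 were called higher in siKEAP1 and lower in siCCNF, while Hspe1 rose in siCCNF and Hspd1 was not called in either single depletion. The antioxidant response element core bound by NRF2, searched as TGACNNNGC on both strands, was found in 12 of the 72 promoters (16.7%) and in those of 14% of all genes. Of the 12 members, 4 were called higher in siKEAP1 (Cct2, Dnaja2, Hspa12a and Hsph1), 1 lower (Dnajb2) and 7 were not called. Over all genes tested, 20.4% were higher and 20.2% lower there. The calls of Cct2 and Hspa12a were lost in 8 and 10 of 22 alternatives. A match describes letters in the sequence and not binding.

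In mitochondria, Hspe1 and Hspa9 rose where CCNF was depleted. Hspe1, which encodes the HSP10 lid of the chaperonin, read 202, 135 and 133 CPM in siCONTROL, 177, 177 and 165 in siKEAP1, 253, 232 and 241 in siCCNF and 239, 242 and 326 in the double depletion. The siCCNF and double depletion libraries all lay above those of siCONTROL and siKEAP1. Its log2 fold change was 0.63 ± 0.15 in siCCNF (edgeR adjusted p = 0.00378) and 0.78 ± 0.15 in the double depletion (edgeR adjusted p = 9.40e-04). Within siCONTROL and the double depletion, it was highest in the 2 libraries that follow gene length most, and both calls passed in each of 22 alternatives. Hspd1, the HSP60 of the ring, read 450.2, 413 and 394 CPM in siCONTROL, 422, 463 and 447 in siKEAP1, 431, 489 and 443 in siCCNF and 477, 508 and 494 in the double depletion, where alone it was called (0.23 ± 0.07, edgeR adjusted p = 0.0153). That call was lost in 4 alternatives, and reads of Hspd1 pseudogenes in the table came to 1.92% of its own. Hspa9, the mitochondrial HSP70 that pulls proteins through the import pore, rose in siCCNF from 508, 480.1 and 458 CPM to 576, 634 and 600.5 CPM (0.32 ± 0.06, edgeR adjusted p = 6.41e-04) and read 590.5, 608 and 600.5 CPM in the double depletion.

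Across 7 members known for their work in mitochondria, 2 (28.6%) were higher and 1 (14.3%) lower in siCCNF, against 22.5% and 25.5% of all genes. In the double depletion 3 (42.9%) were higher and 0 lower, against 20.6% and 23.6%. The lower one in siCCNF was Dnajc15, a J-domain protein of the import motor (-0.34). In siKEAP1 edgeR called 0 of the 7, with 1 at an unadjusted p under 0.05, and DESeq2 and limma called 0. There 2 were called higher without siCONTROL replicate 1 and siKEAP1/siCCNF replicate 3. Over all genes, 20.4% were higher and 20.2% lower in siKEAP1. Dnajc30, described below, was not on this list and was called lower in siKEAP1. The summed level of the 7 was 1231 ± 106 CPM in siCONTROL, 1245 ± 42.6 in siKEAP1, 1470 ± 48.1 in siCCNF and 1538 ± 70.8 in the double depletion.

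Chaperones of the ER did not move as a block. Hspa5, the ER HSP70 also called BiP, read 938, 1013 and 1015 CPM in siCONTROL, 828, 866 and 860 in siKEAP1, 1285, 1298 and 1249 in siCCNF and 1098, 1111 and 1179 in the double depletion. It was lower in all siKEAP1 libraries and higher in all siCCNF libraries than in any siCONTROL library, with log2 fold changes of -0.22 ± 0.057 (edgeR adjusted p = 0.00858) and 0.37 ± 0.057 (edgeR adjusted p = 1.54e-04). Dnajb11, an ER J-domain partner of BiP, rose in siCCNF from 125, 128 and 123 CPM to 189.8, 189 and 180.1 CPM (0.57 ± 0.059, edgeR adjusted p = 4.42e-06). Dnajb9, which helps BiP to repress the stress sensor IRE1, fell in siCCNF from 33.2, 36.6 and 34 CPM to 21.4, 22.4 and 20.8 CPM (-0.69 ± 0.077, edgeR adjusted p = 9.31e-06) and read 23.2, 20.1 and 22.1 CPM in the double depletion. Dnajb11 and Dnajb9, BiP partners of the same class, thus moved in opposite directions.

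Hsp90b1, the ER HSP90 also called GRP94, was lower in each depletion. It read 901, 962 and 956 CPM in siCONTROL, 735, 768 and 764 in siKEAP1, 804, 825 and 763 in siCCNF and 692, 728 and 710.1 in the double depletion, with log2 fold changes of -0.31 ± 0.057, -0.24 ± 0.057 and -0.40 ± 0.057, all called. Dnajc3, an ER J-domain protein that also restrains the kinase PERK, followed it (-0.23, -0.38 and -0.48), although its fall in siKEAP1 was lost on leaving out any of 5 single libraries and ranged there from -0.24 to -0.19. Hspa13, an ER-associated HSP70, took the pattern of the cytosolic genes, higher in siKEAP1 (0.36 ± 0.077, edgeR adjusted p = 0.0023) and lower in siCCNF (-0.40 ± 0.077, edgeR adjusted p = 8.13e-04). Of the 8 ER members, 2 (25%) were higher and 4 (50%) lower in siKEAP1, against 20.4% and 20.2% of all genes. The 2 were Hspa13 and Dnajb9, and the call of Dnajb9 was lost in 8 of 22 alternatives. In siCCNF and in the double depletion 2 (25%) were higher and 5 (62.5%) lower. Over all genes the shares were 22.5% and 25.5% in siCCNF and 20.6% and 23.6% in the double depletion. The other ER members of this list were Dnajc10, which fell in siCCNF (-0.26), and Dnajc1, which fell in siKEAP1 (-0.32). The sum of the 8 was 2785 ± 122 CPM in siCONTROL, 2493 ± 51.7 in siKEAP1, 2852 ± 74.7 in siCCNF and 2581 ± 15 in the double depletion.

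**Figure D3:**
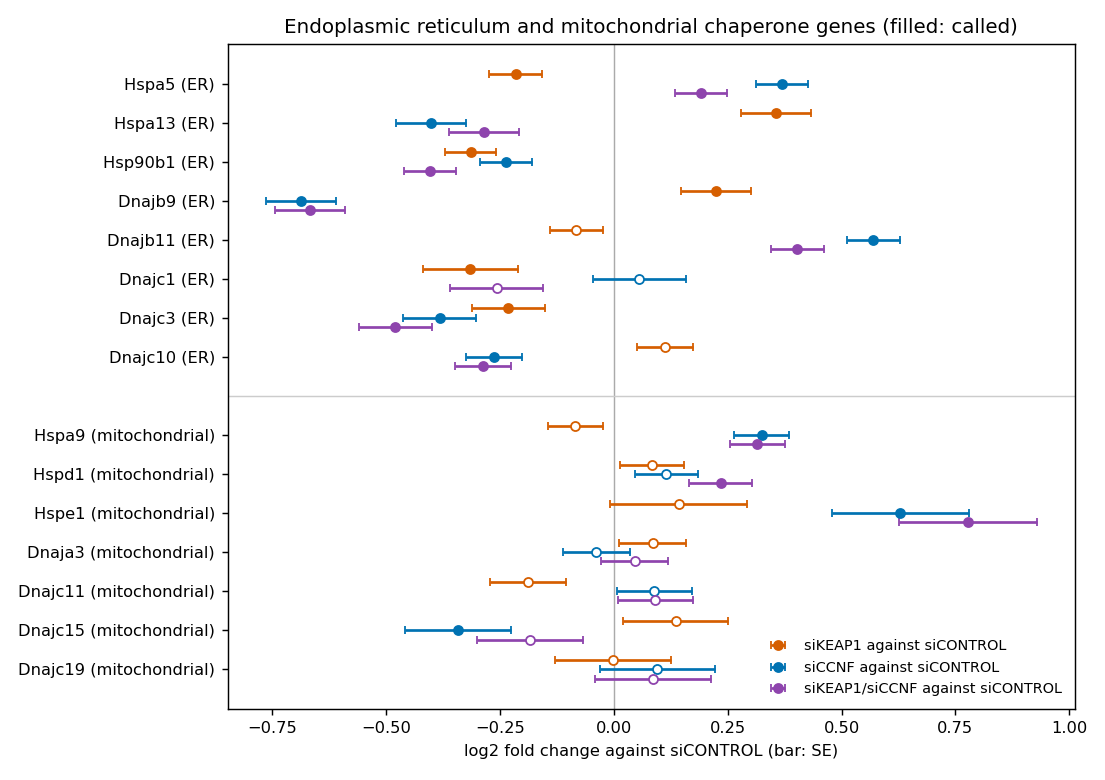
Log2 fold change against siCONTROL (horizontal axis, bars are SE) of 8 ER and 7 mitochondrial chaperone genes in siKEAP1 (orange), siCCNF (blue) and the double depletion (purple). Filled points were called, and Hspa5 and Dnajb11 lie to the right of 0 in siCCNF while Dnajb9 lies at -0.69 and Hspe1 is the highest of the mitochondrial genes at 0.63.

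The ER stress response element, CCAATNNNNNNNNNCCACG on either strand, was found in the promoters of 3 of the 72 members (4.17%), Hspa5, Hsp90b1 and Dnajc3, and in those of 0.137% of all genes. The stretches before the start are shown because these are the ER members that hold the motif, which is in capitals. They are chr2:34771980-34772088 on the plus strand for Hspa5, chr10:86705488-86705694 on the minus strand for Hsp90b1, with 2 matches in opposite orientation, and chr14:118937782-118937890 on the plus strand for Dnajc3.
Hspa5: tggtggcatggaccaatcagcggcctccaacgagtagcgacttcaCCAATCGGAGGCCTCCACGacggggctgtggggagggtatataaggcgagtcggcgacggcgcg
Hsp90b1: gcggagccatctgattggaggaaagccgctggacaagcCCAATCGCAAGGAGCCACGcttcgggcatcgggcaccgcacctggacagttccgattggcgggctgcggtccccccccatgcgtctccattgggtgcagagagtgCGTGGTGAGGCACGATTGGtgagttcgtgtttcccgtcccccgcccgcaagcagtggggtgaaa
Dnajc3: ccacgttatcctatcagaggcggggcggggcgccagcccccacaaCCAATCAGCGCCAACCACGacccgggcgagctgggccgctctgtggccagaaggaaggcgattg

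All 3 genes were called lower in siKEAP1. In siCCNF Hspa5 was higher and the other 2 were lower, and the same held in the double depletion.

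Of the CCT ring, which folds actin and tubulin, Cct3 was the exception. Cct3 (chr3:88297116-88321767, plus strand), which encodes the gamma subunit, read 337, 281 and 274 CPM in siCONTROL, 114, 119.5 and 121 in siKEAP1, 275, 279.7 and 274 in siCCNF and 208, 211 and 242 in the double depletion. The siKEAP1 libraries were far below all others and the double depletion lay between them and siCONTROL without overlap. In siKEAP1 it was at 39.8% of siCONTROL (log2 fold change -1.33 ± 0.084, edgeR adjusted p = 6.62e-08), and in the double depletion at 74.1% (-0.43 ± 0.082, edgeR adjusted p = 8.29e-04). In siCCNF it was not called (-0.11). Keap1 itself read 12.6 CPM in siKEAP1 and 24.1 CPM in the double depletion, in the same order as Cct3. The part of the depth of depletion in the Cct3 values was not tested.

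The other subunits kept close to their siCONTROL levels. In siKEAP1 the log2 fold changes were 0.19 for Cct2, 0.23 for Cct4, 0.06 for Cct5, 0.22 for Cct7 and 0.061 for Cct8, of which Cct2 and Cct4 were called. In the double depletion Cct2 (0.19), Cct4 (0.32) and Cct8 (0.20) were called higher. Of 22 alternatives, the siKEAP1 calls were lost in 8 for Cct2 and in 6 for Cct4, and the double depletion calls in 5 for Cct2, in 13 for Cct8 and in 0 for Cct4. With the gene length trend removed 0 subunits were called higher in siKEAP1, with 3 genes of the class, Cct3 included, at an unadjusted p under 0.05 there, and 2 were called higher in siCCNF. In siCCNF edgeR called 0 of the 7 tested, with 0 at an unadjusted p under 0.05 and 0 by DESeq2 or limma. Without siCONTROL replicate 1 and siKEAP1/siCCNF replicate 3, however, 5 subunits were higher in siKEAP1, 4 in siCCNF and 5 in the double depletion, so the small rises depended on these libraries, and siCONTROL replicate 1 was the highest siCONTROL library for Cct2, Cct4, Cct5, Cct7 and Cct8. Cct3 remained lower in siKEAP1 there. Cct6b, a testis form, stayed under 0.8 CPM. The remaining ring subunits are named or annotated outside the rule. Tcp1, the alpha subunit, read 341 ± 15 CPM in siCONTROL and 322 ± 2.1 in siKEAP1 and was called higher in siCCNF (0.14) and the double depletion (0.25), and Cct6a, listed in the table as a processed transcript, read 294 ± 20 CPM in siCONTROL and was not called.

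**Figure D4:**
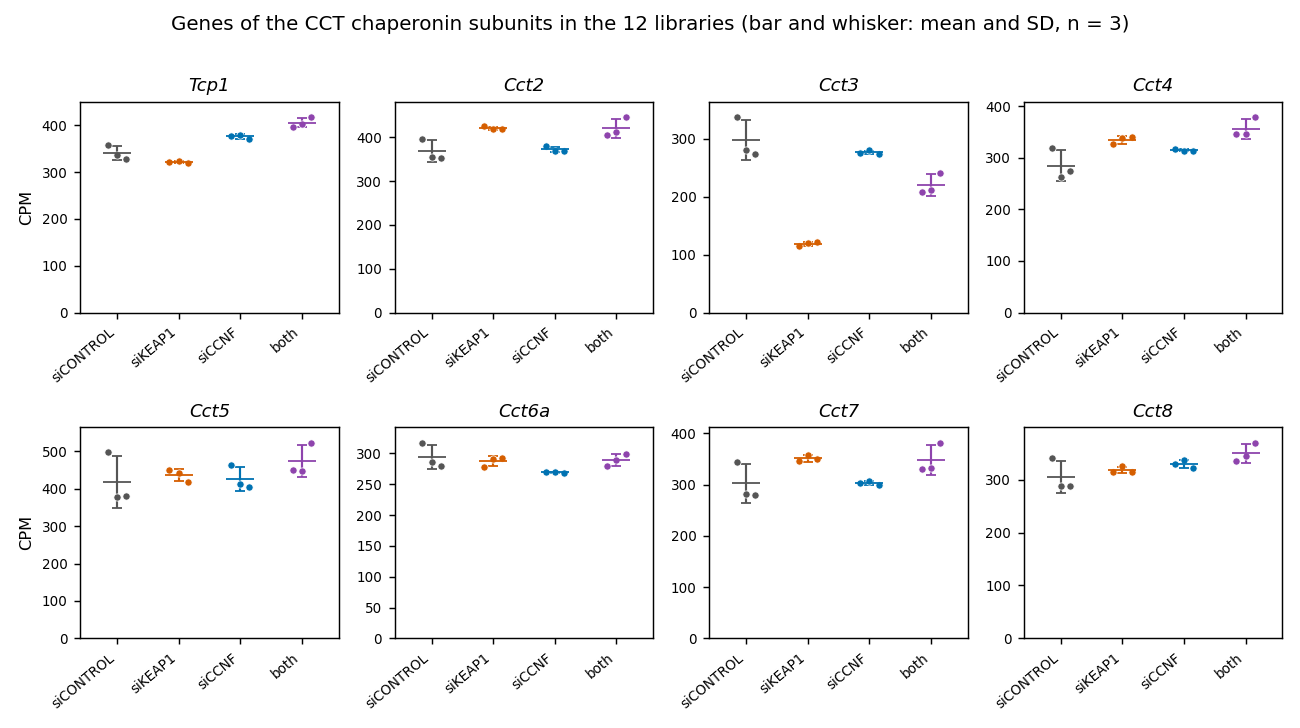
CPM (vertical axes, each from 0) of the 8 genes of the CCT ring in the 3 libraries of each group, with mean and SD. Cct3 lies at 114 to 121 CPM in siKEAP1 and at 208 to 242 CPM in the double depletion, while Tcp1, Cct2 and Cct4 are slightly higher in the double depletion than in siCONTROL.

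The DNAJC class, the most diverse of the J-domain proteins, had more lower than higher calls. Of 26 tested, 2 were higher and 7 lower in siKEAP1 (median log2 fold change -0.041), 4 higher and 10 lower in siCCNF (-0.14), and 3 higher and 10 lower in the double depletion (-0.22). Over all genes 20.2%, 25.5% and 23.6% were lower, where the 7, 10 and 10 genes were 26.9%, 38.5% and 38.5% of the class. The higher calls were 7.69%, 15.4% and 11.5% of the class, against 20.4%, 22.5% and 20.6% of all genes. The siKEAP1 counts were 1 and 11 with the gene length trend removed, and 2 and 10 without siCONTROL replicate 1 and siKEAP1/siCCNF replicate 3. Dnajc5, the cysteine-string protein of secretory vesicles, read 114, 136 and 128 CPM in siCONTROL, 119, 118 and 125 in siKEAP1, 69, 73.7 and 74.5 in siCCNF and 78.2, 78.1 and 71.1 in the double depletion. It fell in both groups with siCCNF (-0.80 ± 0.074 and -0.73 ± 0.074). Dnajc12, a partner of aromatic amino acid hydroxylases, went from 4.53, 3.74 and 2.65 CPM to 1.34, 0.583 and 1.34 CPM in siCCNF (-1.70 ± 0.29, edgeR adjusted p = 3.37e-04) and 1.03, 1.23 and 1.67 CPM in the double depletion. Dnajc17 also fell in siCCNF (-0.78), as did Dnajc9, a histone chaperone (-0.56).

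Of the 7 DNAJC genes that fell in siKEAP1, Dnajc3 and Dnajc25 also fell in siCCNF, although the siCCNF call of Dnajc25 was lost in 7 of 22 alternatives. Dnajc30, which has a mitochondrial protein but was not on the list above, went from 8.7, 6.51 and 6.6 CPM to 4.88, 3.52 and 4.65 CPM (-0.75 ± 0.17, edgeR adjusted p = 0.0035). Dnajc21, which acts in ribosome assembly, went from 58.4, 50.8 and 47.4 CPM to 36.2, 32 and 33.5 CPM (-0.62 ± 0.085, edgeR adjusted p = 6.25e-05), and Dnajc25 from 31.7, 29.8 and 32.8 CPM to 21.6, 21.2 and 20.8 CPM (-0.57 ± 0.069, edgeR adjusted p = 2.24e-05). Dnajc7, a partner of HSP70 and HSP90, was lower in siKEAP1 (-0.38) and higher in siCCNF (0.34), against the direction of the cytosolic HSP70 and HSP90 genes. Dnajc18 (0.40) and Dnajc27 (0.41) also rose in siCCNF, and Hspbap1, a binding partner of HSPB1, rose there by 0.46 on the log2 scale.

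Dnajc6 and Dnajc22 were changed at very low levels. Dnajc6, auxilin, which uncoats clathrin vesicles, had 5, 1 and 4 reads in siCONTROL, 16, 30 and 19 in siKEAP1, 0, 1 and 2 in siCCNF and 2, 5 and 2 in the double depletion. The siKEAP1 libraries stood above all others (2.50 ± 0.51, edgeR adjusted p = 0.00146). The fall in siCCNF rests on at most 5 reads per library and was lost in 10 alternatives. Dnajc22 read 1.21, 0.922 and 1.01 CPM in siCONTROL, 1.49, 1.9 and 1.75 in siKEAP1, 0.485, 0.428 and 0.564 in siCCNF and 0.754, 0.554 and 0.659 in the double depletion. Its fall in siCCNF (-1.08 ± 0.27, edgeR adjusted p = 0.00468) passed in each of 22 alternatives, while its rise in siKEAP1 was lost in 9 and its value in the double depletion in 18.

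Setting the double depletion against the single ones gave an uneven picture. Against siKEAP1, which shows the effect of adding siCCNF, 19 of the 79 members were higher and 28 (35.4%) lower, where 24.1% and 26.9% of all genes were higher and lower. A fall over 2-fold was seen for 10 members, and 14.5% of all genes changed over 2-fold in either direction. The 10 were Hsp90ab1 (-1.17), Hsph1 (-1.29), Hspb1 (-1.37), Hspb8 (-1.09), Hspa1a (-1.09), Hspa12a (-1.74), Dnaja4 (-1.06), Dnajc12 (-1.83), Dnajc22 (-1.39) and Dnajc6 (-3.02). Of the 15 heat-inducible genes, 11 were lower and 1, Hspe1, was higher (0.64). Cct3 (0.90), Dnajb5 (0.91), Hspb2 (0.91) and Dnajc30 (0.64) led the rises.

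Against siCCNF, which shows the effect of adding siKEAP1, few members differed. There were 5 higher and 1 lower, against 3% and 2.19% of all genes, and 0.727% of all genes changed over 2-fold. The 5 were Hspb8 (0.55 ± 0.068, edgeR adjusted p = 4.75e-04), Hsp90ab1 (0.38 ± 0.06, edgeR adjusted p = 0.00288), Hsph1 (0.37 ± 0.077, edgeR adjusted p = 0.015), Hspb6 (0.38 ± 0.08, edgeR adjusted p = 0.0148) and Hspb1 (0.41 ± 0.11, edgeR adjusted p = 0.0491). The lower one was Cct3 (-0.33 ± 0.082, edgeR adjusted p = 0.037). The values of Hsp90ab1 and Hspb8 passed in each of 22 alternatives, whereas that of Hspb1 lost its call in 13 alternatives, that of Cct3 in 10, and those of Hsph1 and Hspb6 in 3 each. The counts were 15 higher and 6 lower without siCONTROL replicate 1 and siKEAP1/siCCNF replicate 3, and 12 higher without siCONTROL replicate 1 alone, which enters this comparison through the shared estimate of spread. Leaving out any siCCNF library or siKEAP1/siCCNF replicate 2 gave 3 higher.

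The interaction tests whether siKEAP1 acted differently in CCNF-depleted cells. It was called for 13 members, 6 higher and 7 lower (7.59% and 8.86%), against 10.6% and 10.5% of all genes, so no larger share than in the whole table. The 7 lower ones rose with siKEAP1 alone and had smaller log2 fold changes for siKEAP1 when CCNF was depleted as well. They were Dnajb4 (-0.59 ± 0.087, edgeR adjusted p = 3.82e-04), Hspa1b (-0.51 ± 0.12), Bag3 (-0.49 ± 0.091), Bag2 (-0.41 ± 0.12), Hspb8 (-0.40 ± 0.095), Hsph1 (-0.37 ± 0.11) and Dnaja2 (-0.36 ± 0.087). The interaction of Hsph1 lost its call in 9 alternatives and that of Bag2 in 6. For Bag3 the log2 effect of siKEAP1 was 0.65 in control cells and 0.15 in CCNF-depleted cells. In contrast, Hsp90ab1 rose by nearly the same amount in both settings, by 0.40 and 0.38, and its interaction was -0.026 ± 0.085 (edgeR adjusted p = 0.873). A difference for Hsp90ab1 was thus not detectable with this spread.

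The 6 higher interactions were led by Cct3 (1.00 ± 0.12, edgeR adjusted p = 7.44e-05) and Dnajb5 (0.79 ± 0.19, edgeR adjusted p = 0.0107). Dnajc21 (0.51 ± 0.12) and Dnajc25 (0.48 ± 0.096) fell with siKEAP1 in control cells and were not called for it in CCNF-depleted cells. Dnajc9 (0.48 ± 0.13) and Hspb6 (0.43 ± 0.11) were not called with siKEAP1 alone. All 6 were called at an adjusted p under 0.05. Because Keap1 transcript was less depleted in siKEAP1/siCCNF than in siKEAP1, the interaction cannot be told apart from an effect of the depth of depletion.

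**Figure D5:**
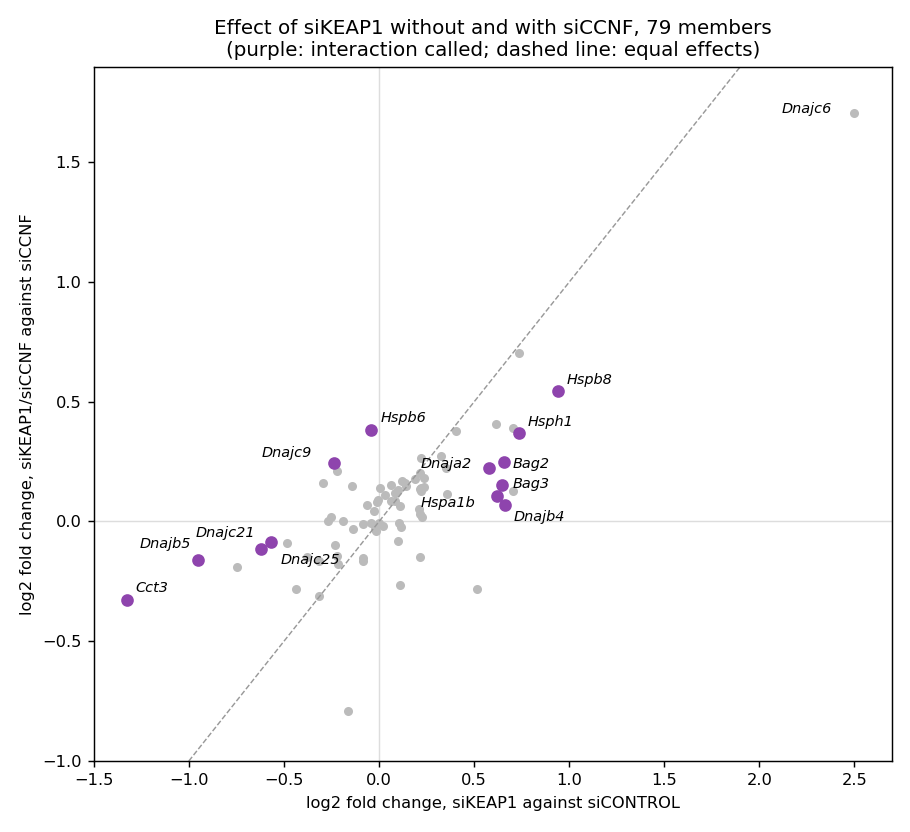
Log2 fold change of siKEAP1 against siCONTROL (horizontal axis) and of the double depletion against siCCNF (vertical axis) for the 79 tested members, which use different libraries. Purple points are the 13 members with a called interaction, the dashed line marks equal effects, and Bag3, Dnajb4 and Hspa1b lie near 0.62 to 0.66 horizontally but near 0.068 to 0.15 vertically.

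Of 61 other genes of the folding machinery, 57 were tested. In siKEAP1 2 were higher (3.51%) and 8 lower (14%), in siCCNF 13 (22.8%) and 16 (28.1%), and in the double depletion 11 and 14, against the 20.4% and 20.2%, 22.5% and 25.5%, and 20.6% and 23.6% of all genes. In the main fit, calls of these genes in siKEAP1 were thus fewer than over all genes, and those in siCCNF were near that level. With the gene length trend removed the siKEAP1 counts were 1 and 20 and those of siCCNF 17 and 15. Without siCONTROL replicate 1 and siKEAP1/siCCNF replicate 3 they were 7 and 12 in siKEAP1, 24 and 14 in siCCNF, and 16 and 17 in the double depletion. The number of calls in siKEAP1 and the balance in siCCNF thus depended on these settings. The ER list accounted for 6 of the 8 that fell in siKEAP1 in the main fit. These were 46.2% of its 13 genes, where 20.2% of all genes fell. The genes named here, other than the heat shock factors, Tcp1 and Cryab, were chosen after their values were seen. P4hb, the protein disulfide isomerase, read 1567, 1594 and 1566 CPM in siCONTROL and 922, 873 and 867 in siKEAP1 (-0.83 ± 0.057, edgeR adjusted p = 1.30e-07). Calr, the lectin chaperone calreticulin, fell by 0.32 on the log2 scale. Serpinh1, the collagen-specific chaperone HSP47, fell as well (-0.62 ± 0.074, edgeR adjusted p = 1.96e-05). Fibroblast genes moved beside these. The 3 tested fibroblast markers were lower in siKEAP1 and higher in siCCNF, with summed levels of 310.5 to 399.7 CPM in siCONTROL, 127 to 131 in siKEAP1, 1105 to 1244 in siCCNF and 513 to 569 in the double depletion, and their part was not tested. In siCCNF 7 of the 13 ER genes (53.8%) rose, among them Ppib (0.77) and Pdia6 (0.60), where 22.5% of all genes rose. There 3 (23.1%) fell, among them Hyou1, the ER exchange factor of BiP (-0.67), where 25.5% of all genes fell.

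Co-chaperones of HSP70 and HSP90 were not called in siKEAP1 by the main test. Of 17 tested, edgeR called 0 in siKEAP1, and their log2 fold changes lay between -0.25 and 0.26. Over all genes, 20.4% were higher and 20.2% lower. At an unadjusted p under 0.05 there were 4 of the 17 in siKEAP1, and DESeq2 and limma each called 1 higher. Without siCONTROL replicate 1 and siKEAP1/siCCNF replicate 3 there were 4 higher, while with the gene length trend removed there were 3 lower. In siCCNF 2 (11.8%) were higher and 6 (35.3%) lower, against 22.5% and 25.5% of all genes. Ahsa1, the activator of the HSP90 ATPase, rose (0.49) while the HSP70 and HSP90 partners Fkbp4 (-0.49), St13 (-0.33) and Stip1 (-0.23) fell. The mitochondrial protein quality control genes Clpx (-0.78) and Lonp1 (-0.37) fell in siCCNF, where Hspe1 and Hspa9 rose.

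Of the 79 tested members, 20 were called in none of the 6 comparisons. Among them were Hspa4, Hspa14, Hspa1l, Dnaja1, Dnaja3, Bag1, Bag4, Cct5 and Cct7. Leaving aside the rare transcripts of Hspb7 and Cct6b, their log2 fold changes in the pairwise comparisons lay between -0.39 and 0.22. Members with a call that were not described above changed little. Dnajb12, a J-domain protein anchored in the ER membrane with its J-domain in the cytosol, which is not among the 8 ER members counted above, was called higher in each depletion (0.22, 0.17 and 0.30). Dnajc4 fell in siKEAP1 (-0.44) and in the double depletion (-0.44), and Dnajc16 rose in siCCNF (0.20) and in the double depletion (0.17). Bag6 was called higher in the double depletion against siCONTROL (0.17) and against siKEAP1 (0.20). Bag5 (0.33), Dnajc11 (0.28) and Hspbp1, an exchange factor of HSP70 (0.31), were called higher in the double depletion against siKEAP1.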

How the data were processed

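Polyadenylated RNA of 12 libraries was sequenced and quantified by a sequencing company for the study. The authors deposited a table of raw counts per gene, which were used for all tests, and FPKM values, which the authors' provider had scaled by transcript length and library size and which were used for levels between genes and for limma. The deposited table also holds the authors' own fold changes and p-values, which were not used, and 0 other columns of sample values were left unused. The submitters' processing notes name HISAT2 and GRCm39, whereas the coordinates in the table are those of GRCm38, which are given here. The counting tool, its use of strand and its treatment of reads with several matches are not given in the sources used here.

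Counts were filtered with filterByExpr, scaled by TMM and fitted with edgeR 4.0.16 (R 4.3.3) by the quasi-likelihood test with 4 group means, and p-values were adjusted by Benjamini-Hochberg over 15122 genes, with a threshold of 0.05. The SE is the log2 fold change divided by the square root of F. CPM used TMM-scaled totals. Alternatives were DESeq2 1.42.0, limma 3.58.1 on log2(FPKM + 1) and log2(FPKM + 0.1), no TMM, other count filters, a replicate block, the compared libraries alone, a spline of gene length with 5 degrees of freedom, each library left out, a 2-fold threshold and, chosen after seeing the data, siCONTROL replicate 1 and siKEAP1/siCCNF replicate 3 left out together. On simulated counts for siKEAP1 against siCONTROL over 15122 genes, the test found 41 of 67 genes changed 1.5-fold, 50 of 69 changed 2-fold and 57 of 64 changed 4-fold, with 3 false calls. The simulation changed only 200 genes and held no gene length trend, unlike the data. Its false calls therefore do not give the error rate of the calls here. With 18464209 to 37743198 counts per library, counting error matters mainly for genes with few reads, such as Dnajc6, Dnajc12, Dnajc22 and Hspa1a. For abundant genes the spread between 3 biological replicates sets the precision.

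The members and the gene lists were chosen with earlier results of these data known. Named members are those called and over 2-fold, the 5 largest rises and falls of each comparison, the 5 largest interactions in each direction, and a fixed list of well-known chaperones. The other members with values in the text were chosen after their values were seen. Promoter sequences came from RefSeq (GRCm38.p6). The values of 1 listed gene outside the member rule are not reported here.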

Additional observations from a re-analysis of the deposited data

Results flagged for a closer look

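The effect of siKEAP1 differed between control and CCNF-depleted cells, by the edgeR interaction test, for 13 members, of which the 12 with the largest differences are listed here on the log2 scale. A positive value means that siKEAP1 raised the gene more, or lowered it less, in CCNF-depleted cells. The positive values were 1.002 for Cct3, 0.793 for Dnajb5, 0.506 for Dnajc21, 0.483 for Dnajc25, 0.482 for Dnajc9 and 0.425 for Hspb6. The negative values were -0.366 for Hsph1, -0.395 for Hspb8, -0.41 for Bag2, -0.493 for Bag3, -0.513 for Hspa1b and -0.594 for Dnajb4. Keap1 read 12.6 CPM in siKEAP1 and 24.1 CPM in siKEAP1/siCCNF, and the part of this difference in the values was not tested.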

How the results depend on the processing

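Of 138 called values of 47 named members, 106 kept their call and direction under every alternative run, and 0 changed direction. With the 2-fold threshold the member counts were 1 higher and 1 lower in siKEAP1, 0 and 6 in siCCNF, 0 and 3 in the double depletion, 0 and 10 for the double depletion against siKEAP1, and 0 and 0 against siCCNF. With gene length removed 21 members were lower in siKEAP1 and 4 in the double depletion against siCCNF. With siCONTROL replicate 1 and siKEAP1/siCCNF replicate 3 left out, chosen after seeing the data, 22 were higher in siCCNF, 15 higher and 6 lower in the double depletion against siCCNF, and 14 interactions lower. With the compared libraries alone 10 were higher in the double depletion and 3 against siCCNF. Lower calls against siCCNF numbered 4 with DESeq2 and 0 without TMM. Leaving out 1 library gave 3 to 12 higher and 0 to 4 lower calls against siCCNF. The cause of these changes was not tested.

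With the replicate number as a block, 131 of the 138 called values kept their call, 7 lost it, and 0 members were lower in the double depletion against siCCNF. The labels do not say whether a number marks paired libraries, and correlated deviations from the group means could not settle it. Of 18 same-numbered pairs, 4 had r over 0.1 (range -0.27 to 0.20), and 0 libraries correlated best with their own number in every other group. The highest r, 0.39, joined the 2 libraries that follow gene length most. Among siCONTROL, siKEAP1 and siCCNF, same-numbered pairs ranged from 0.0035 to 0.20 and other pairs from -0.17 to 0.095. Depth limits the values of Dnajc6, Dnajc12, Dnajc22 and Hspa1a, and the untested members lie near or under a floor of 3 counts.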
